A study of Homo sapiens with 10 samples.

Results

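Syndecans and glypicans are the core proteins that carry heparan sulfate chains at the cell surface. The set described here holds 8 genes, SDC1, SDC2, SDC3, SDC4, GPC1, GPC3, GPC4 and GPC6, taken by gene symbol alone, and all 8 were found among the 26256 genes of the table of untreated cells and among the 55736 genes of the Nutlin-3a table. RNA-seq was done in MCF10A, a human breast epithelial line that grows without limit but does not form tumors and keeps a nearly normal chromosome number, and in G12V cells, which are MCF10A carrying an oncogenic HRas with a valine at residue 12. The G12V cells were a hygromycin-selected population obtained by lentiviral transduction that had resumed growth after an initial arrest, and a green fluorescent protein vector entered the same cells. There were 2 MCF10A and 2 G12V libraries, both from untreated cells, so every difference between them joins the oncogene with the weeks of selection and outgrowth. In the second experiment, parental MCF10A cells received 10 µM Nutlin-3a, which blocks the binding of MDM2 to p53 and so stabilizes p53, or its solvent DMSO for 4 h, with 3 libraries each. All cells grew with EGF, insulin, hydrocortisone, cholera toxin and horse serum.

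Each syndecan spans the membrane once, with heparan sulfate (and, in some members, chondroitin sulfate) chains on its outer part and a short cytoplasmic tail that binds adaptor proteins and, in SDC4, protein kinase C alpha. Glypicans have no cytoplasmic tail and are held to the outer leaflet of the membrane by a lipid anchor. The chains bind growth factors such as FGF2 and present them to their receptors, and proteases can cut the core proteins off the cell. In mammary epithelium SDC1 is the best known member, found on the sides of epithelial cells where they touch each other, and SDC4 sits in focal adhesions.

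The RNA was read as whole-number counts per gene, with 21538593 to 23683975 counts per library in the untreated table and 15453226 to 17378734 in the Nutlin-3a table. Levels are given as CPM, counts per 1000000 on library sizes scaled by the trimmed mean of M-values (TMM). Differentially expressed (DE) means an adjusted p under 0.05 (edgeR quasi-likelihood F-test, Benjamini-Hochberg over all genes tested) and a log2 fold change above 0.5 in size. Of 14376 genes tested in G12V against MCF10A, 11.0% were DE (5.01% higher and 5.95% lower in G12V), and of 13529 genes tested in Nutlin-3a against DMSO, 0.170% were DE. HRAS rose from 69.3 ± 4.77 CPM (SD, n = 2) in MCF10A to 573 ± 82.0 CPM (SD, n = 2) in G12V, and the p53 targets MDM2 and CDKN1A rose by 2.54 and 2.16 on the log2 scale under Nutlin-3a, which fits the labels of the libraries. Epithelial markers (keratins, EPCAM, CDH1 and the like) fell in G12V, with 8 of 10 tested DE and lower and none DE and higher, and their summed level lay between 7487 and 9283 CPM in MCF10A and between 1505 and 1852 CPM in G12V. Mesenchymal markers split, with 4 of 8 DE and higher and 2 DE and lower, and summed to 1764 to 2159 CPM in MCF10A and 1665 to 2297 CPM in G12V. A few genes held most of each sum. In MCF10A these were KRT5 (mean 4195 CPM) and KRT17 (2066), and among the mesenchymal markers FN1 (883) and VIM (873). In G12V FN1 stood at 138 CPM and VIM at 1428 CPM. The part of these marker shifts in the changes of the members was not tested. Markers of other cell types stayed low, with summed levels of 37.5 to 64.9 CPM in MCF10A and 53.4 to 60.1 CPM in G12V for fibroblasts (1 of 4 tested DE and higher), 8.68 to 33.0 and 9.92 to 15.3 CPM for endothelium (0 of 3 DE), 19.7 to 38.6 and 23.3 to 41.1 CPM for leukocytes (0 of 2 DE) and 0.749 to 0.818 and 1.11 to 1.29 CPM for adipocytes (0 of 1 DE). In the Nutlin-3a comparison none of the tested genes of these 6 lists was DE.

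Promoters of 6 of the 8 members were found in RefSeq (GRCh38.p14), all but SDC2 and GPC3. The 250 bases before the start are shown for SDC1 (the outer of its 2 starts), GPC4 and GPC6 because these were the 3 DE members, the first pair lower and the last higher in G12V. Each is written 5′ to 3′ on the strand of the gene, SDC1 at chr2:20225476-20225725 (minus strand), GPC4 at chrX:133415490-133415739 (minus strand) and GPC6 at chr13:93226557-93226806 (plus strand). Capitals mark every match, on either strand, to GGGCGG (the letters of a GC box) or CACCTG (an E-box of the kind bound by SNAI and ZEB factors). The third motif searched was TGANTCA, the letters of an AP-1 site.
SDC1: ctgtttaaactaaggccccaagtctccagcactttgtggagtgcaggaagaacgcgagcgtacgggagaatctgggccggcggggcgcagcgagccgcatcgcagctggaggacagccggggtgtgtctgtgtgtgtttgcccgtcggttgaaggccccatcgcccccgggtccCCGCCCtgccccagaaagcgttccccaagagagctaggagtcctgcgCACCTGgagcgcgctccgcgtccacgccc
GPC4: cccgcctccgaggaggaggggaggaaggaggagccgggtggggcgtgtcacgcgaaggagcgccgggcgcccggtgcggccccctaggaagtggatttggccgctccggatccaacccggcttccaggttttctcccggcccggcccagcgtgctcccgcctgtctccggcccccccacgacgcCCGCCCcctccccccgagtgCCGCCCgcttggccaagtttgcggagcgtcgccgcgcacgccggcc
GPC6: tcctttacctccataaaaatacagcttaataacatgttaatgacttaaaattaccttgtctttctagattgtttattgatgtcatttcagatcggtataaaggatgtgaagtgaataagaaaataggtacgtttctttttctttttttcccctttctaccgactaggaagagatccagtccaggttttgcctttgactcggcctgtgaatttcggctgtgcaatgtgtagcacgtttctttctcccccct
The GPC6 window differed from the others in composition, with 37.6% G or C and 6 CpG dinucleotides. The windows of SDC1 (both starts), SDC3, SDC4, GPC1 and GPC4 had 66.4% to 84% G or C and 21 to 37 CpG dinucleotides, and the medians over the 35116 promoters of the table were 58% and 11. GGGCGG stood in 42.6% of all promoters of this length. It was found 8 times in SDC4, 5 times in SDC3, 4 times in GPC1, 2 times in GPC4 and 1 time at each start of SDC1, and had no match in the GPC6 window. CACCTG stood in 17.5% of all promoters, and had 1 match in SDC1, 29 bases before the outer start, and 1 match in SDC3. TGANTCA stood in 6.57% of all promoters and had no match in these 7 windows. Matches to different motifs did not overlap, but neighbouring GGGCGG matches shared a base in SDC3 (those at −94 and −89 from the start) and in GPC1 (at −114, −109 and −104), so those counts include overlapping matches. A match is a description of letters only.

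The 8 genes differ in size far more than their transcripts do (hg19 coordinates as the untreated table gives them). The 4 syndecans have 5 exons each in their canonical transcript and span 24.6 kb for SDC1 (chr2:20400558-20425194), 118 kb for SDC2 (chr8:97505882-97624037), 39.2 kb for SDC3 (chr1:31342313-31381480) and 23.1 kb for SDC4 (chr20:43953929-43977064). The glypicans have 8 or 9 exons, and span 32.4 kb for GPC1 (chr2:241375115-241407495), 450 kb for GPC3 (chrX:132669776-133119673), 114 kb for GPC4 (chrX:132435064-132549205) and 1181 kb for GPC6 (chr13:93879078-95060273). GPC4 and GPC3 are neighbours on X, 121 kb apart, and GPC6 lies 360 kb from GPC5, a glypican outside the set.

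G12V against MCF10A asks what changed in cells that grew out with the oncogene. Of the 8 members, 7 passed the filter on low counts and 3 of those 7 were DE, where 11.0% of all genes tested were. SDC1 and GPC4 were lower and GPC6 was higher in G12V. In 5 of the 7 the G12V values lay wholly above or below the MCF10A values, against 54.8% of all genes tested. The median log2 fold change was −0.21 over the 7 members and −0.0011 over all genes tested. The methods call the replicates biological without saying whether each came from a culture of its own, so the p-values measure the spread between libraries, which may in part be technical.

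**Figure D1:**
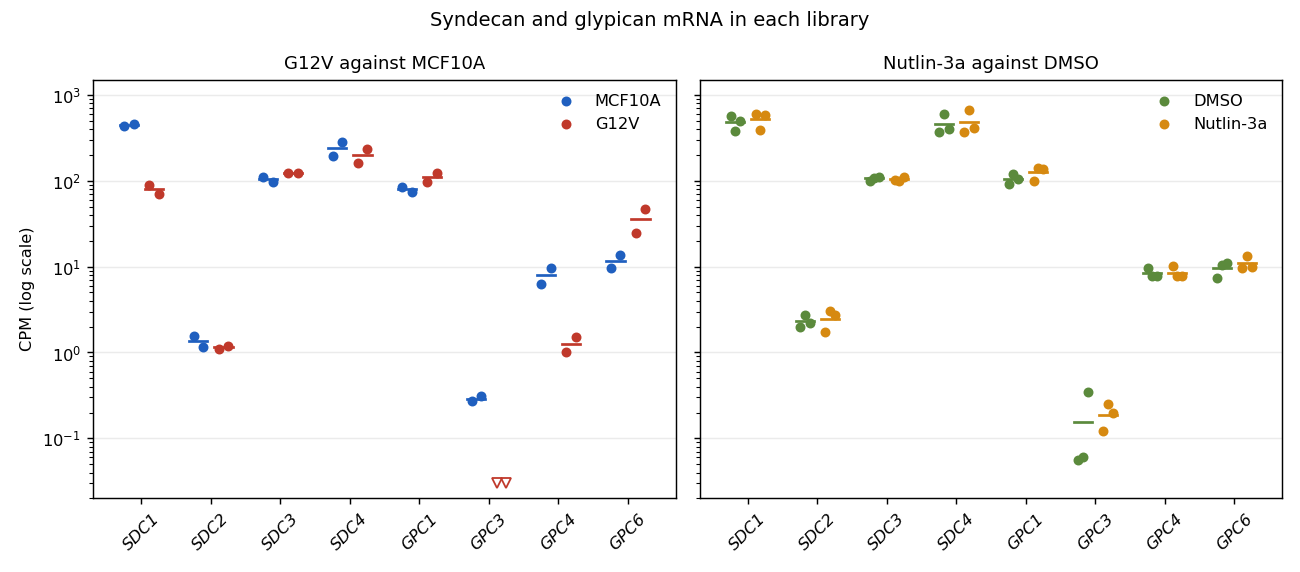
CPM (log axis) of each member in each library, untreated cells at left and the Nutlin-3a experiment at right, with a bar at each group's mean and open triangles at the lower edge for 0 counts. SDC1 and GPC4 of G12V lie below, and GPC6 above, both MCF10A values, while every tested member overlaps between DMSO and Nutlin-3a.

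SDC1 was the most abundant syndecan of the untreated MCF10A libraries and the 1 syndecan that was DE in G12V. It stood at 434 and 457 CPM in the MCF10A libraries and at 89.7 and 70.9 CPM in the G12V libraries, which is 5.55-fold lower. The log2 fold change was −2.47 (SE 0.22, 95% interval −3.01 to −1.94), with an adjusted p of 0.00304 by edgeR's quasi-likelihood test. Both G12V values lay far below both MCF10A values, and the gap was many times the spread within either group.

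SDC4, the syndecan of focal adhesions, stood at 195 and 280 CPM in MCF10A and at 159 and 235 CPM in G12V. The groups overlapped, and the log2 fold change of −0.27 (95% interval −0.96 to 0.42, edgeR adjusted p = 0.629) did not pass. SDC3, best known from neurons, stood at 111 and 97.7 CPM in MCF10A and at 123 and 123 CPM in G12V. Both G12V libraries were higher, yet the log2 fold change of 0.24 (95% interval −0.18 to 0.66, edgeR adjusted p = 0.464) was within the error of the fit. SDC2, typical of fibroblasts and other mesenchymal cells, was near the lower limit of detection in both groups, with 1.55 and 1.15 CPM in MCF10A and 1.11 and 1.20 CPM in G12V. Its interval of −1.18 to 0.75 around a log2 fold change of −0.21 (edgeR adjusted p = 0.805) was the widest among the syndecans.

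The glypicans moved in both directions. GPC4 fell from 6.32 and 9.69 CPM in MCF10A to 1.03 and 1.52 CPM in G12V, 6.28-fold lower. Its log2 fold change was −2.65 (SE 0.42, 95% interval −3.67 to −1.64), with an edgeR adjusted p of 0.0140. The interval overlaps that of SDC1, so the sizes of these falls cannot be ranked.

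GPC6 moved the other way. It stood at 9.73 and 13.8 CPM in MCF10A and at 24.5 and 47.0 CPM in G12V, 3.04-fold higher, with a log2 fold change of 1.60 (SE 0.38, 95% interval 0.68 to 2.52, edgeR adjusted p = 0.0490). The G12V libraries differed from each other by more than the lower of them differed from the higher MCF10A library. This call sat at the threshold. It was lost with relative log expression factors (adjusted p = 0.0513), with no filter on low counts (0.0570) and without G12V replicate 2 (log2 fold change 1.06, adjusted p = 0.0749).

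GPC1, the main glypican of these cells, stood at 85.0 and 73.4 CPM in MCF10A and at 96.6 and 122 CPM in G12V. Both G12V libraries were higher than both MCF10A libraries, but the change did not pass (log2 fold change 0.47, 95% interval −0.022 to 0.96, edgeR adjusted p = 0.215). GPC3, a fetal glypican that is well known from liver tumors, was close to absent. It had 6 and 7 counts in the MCF10A libraries and 0 and 0 in the G12V libraries, so it did not enter the test. Its mean MCF10A level was 2.22-fold the level of a fixed floor of 3 counts per G12V library. That ratio leaves out the counting error of the MCF10A libraries and is no confidence bound. Without the filter its adjusted p was 0.0962.

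**Figure D2:**
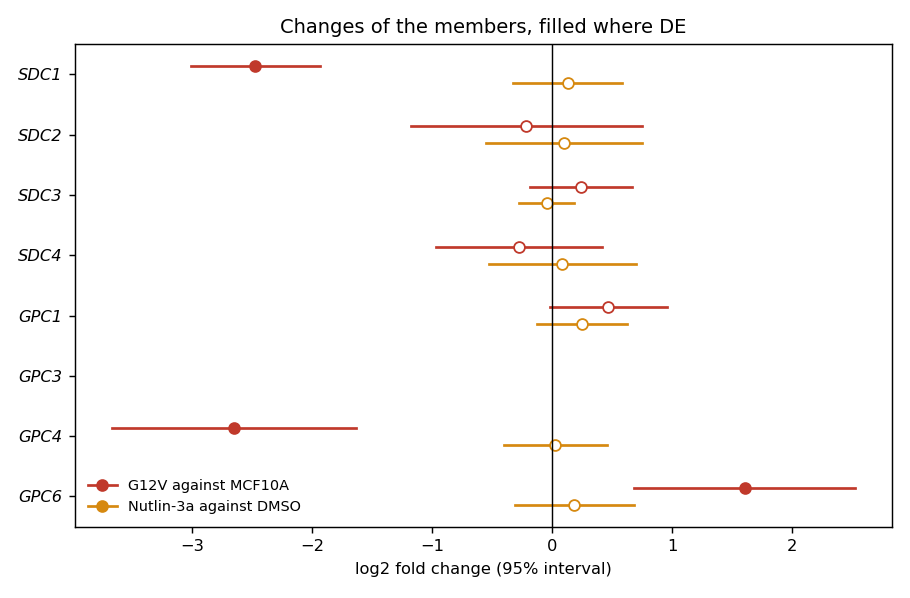
Log2 fold change of each member with its 95% interval (lines), G12V against MCF10A and Nutlin-3a against DMSO, filled where DE. SDC1 at −2.47, GPC4 at −2.65 and GPC6 at 1.60 stand off 0 in G12V, every Nutlin-3a interval crosses 0, and GPC3 was not tested.

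The calls rested on MCF10A replicate 1. Without it no gene of the whole table was DE, and 2 members (SDC1 and GPC4) had an unadjusted p under 0.05, with log2 fold changes of −2.48 and −2.91 and adjusted p of 0.0775 and 0.105 in edgeR, while GPC6 had 1.39 and 0.282. With DESeq2 and with edgeR's exact test 3 members were DE. The regions around the members showed no shift of their size. Among the 18 to 126 tested genes within 5 Mb of each of the 7 tested members, the median log2 fold change lay between −0.17 and 0.052.

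Levels of different genes can be compared only per length, so CPM was divided by the length of the canonical transcript (GENCODE v44 on GRCh37). In MCF10A the order was SDC1 (141 CPM per kb), SDC4 (91.0), GPC1 (21.3), SDC3 (19.9), GPC6 (1.65), GPC4 (1.61), SDC2 (0.407) and GPC3 (0.128). Of these neighbours, GPC1 and SDC3, and GPC6 and GPC4, overlapped in their libraries at this length, and the others did not. In G12V the order was SDC4 (75.3 CPM per kb), GPC1 (29.4), SDC1 (25.4), SDC3 (23.5), GPC6 (5.02), SDC2 (0.350) and GPC4 (0.256), with GPC3 at 0. Here GPC1 overlapped with SDC1, and SDC1 with SDC3. By these lengths SDC1 went from the first place to a group of 3 genes of like level, and GPC4 from the level of GPC6 to below SDC2. The order among close neighbours depended on the length. Per union of all annotated exons, SDC3 lay above GPC1 in MCF10A (15.7 and 13.8 against 13.03 and 11.3 CPM per kb), and in G12V SDC1 (24.8 and 19.6) lay above GPC1 (14.8 and 18.8) and SDC3 (17.4 and 17.4), while GPC4 (0.207 and 0.306) overlapped with SDC2 (0.272 and 0.295). With either length SDC1 stood first in untreated MCF10A and SDC4 first in G12V.

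The summed syndecan RNA was 741 and 836 CPM in MCF10A and 373 and 430 CPM in G12V, and the summed glypican RNA 101 and 97.2 CPM in MCF10A and 122 and 171 CPM in G12V. Within the syndecans, per length, SDC1 made up 56.0% ± 3.78 (SD, n = 2) in MCF10A and 20.8% ± 6.08 (SD, n = 2) in G12V. SDC4 made up 35.8% ± 5.37 and 59.9% ± 8.56, and SDC3 7.97% ± 1.54 and 19.0% ± 2.46, in the same order. The libraries of the groups did not overlap for any of these shares. The shares of SDC4 and SDC3 were larger in G12V while their own levels did not change beyond the error, since a share moves with the other members. Within the glypicans GPC1 held 86.1% ± 4.36 in MCF10A and 85.2% ± 3.57 in G12V, whereas GPC4 held 6.60% ± 2.30 and 0.733% ± 0.0494 and GPC6 6.74% ± 1.99 and 14.1% ± 3.52. The ratio of GPC6 to GPC4 CPM was 1.54 and 1.42 in the MCF10A libraries and 23.9 and 31.0 in the G12V libraries. With 2 libraries against 2 an exact permutation test of a share cannot reach 0.05, and none was made.

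**Figure D3:**
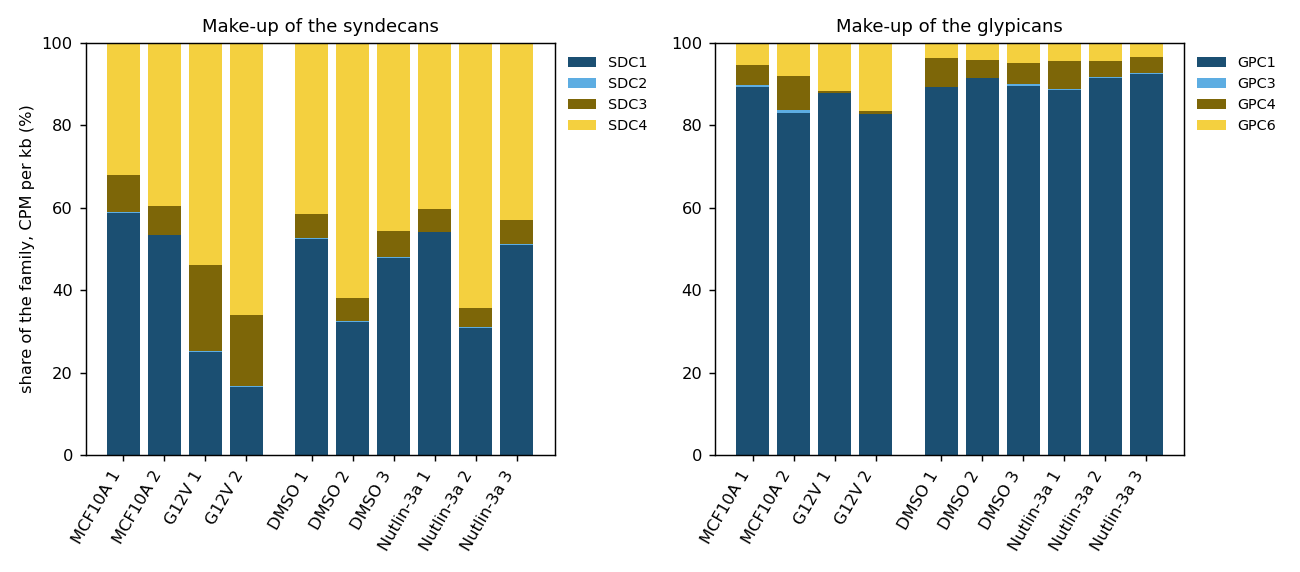
Share (%) of each member in the summed CPM per kb of its family, in each library, syndecans at left and glypicans at right. SDC1 holds 53.4% to 58.7% of the syndecans in MCF10A and 16.5% to 25.1% in G12V, and GPC1 holds most of the glypicans in all libraries.

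In the Nutlin-3a experiment the parental cells had a similar set, but SDC4 stood before SDC1 in the means, unlike in untreated MCF10A. Per length the order under DMSO was SDC4 (174 CPM per kb), SDC1 (152), GPC1 (28.3), SDC3 (20.4), GPC4 (1.68), GPC6 (1.35), SDC2 (0.703) and GPC3 (0.069), and the order of the means under Nutlin-3a was the same. SDC4 overlapped with SDC1, and GPC4 with GPC6, in both groups. By this length SDC4 exceeded SDC1 only in replicate 2, at 232 against 121 CPM per kb under DMSO and 258 against 124 under Nutlin-3a. Per union of exons SDC4 also exceeded SDC1 in DMSO replicate 3 (151 against 139 CPM per kb). Nutlin-3a replicate 3 had 156 for SDC4 against 163 for SDC1. This table was counted with another annotation and scaled by itself, so its levels are not set against those of the untreated table.

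None of the 7 members tested was DE after 4 h of Nutlin-3a, where 0.170% of all genes were, and none had an unadjusted p under 0.05 in edgeR's quasi-likelihood test, in edgeR's exact test or in DESeq2. Those tests leave out the replicate number, and in the fit that blocks on it no member was DE either. All 7 overlapped between the groups, while 8.07% of all genes tested did not. SDC1 stood at 560, 383 and 503 CPM under DMSO and at 599, 393 and 588 CPM under Nutlin-3a (log2 fold change 0.13, 95% interval −0.33 to 0.58). The paper lists real-time PCR primers for SDC1. Its supplement shows Nutlin-3a responses, by real-time PCR and RNA-seq, of genes lower in G12V with a p53 motif in regions that lost accessibility. The real-time PCR values were not used here. SDC4 stood at 366, 606 and 395 CPM under DMSO and at 368, 674 and 408 CPM under Nutlin-3a (0.085, −0.53 to 0.70). SDC1 and SDC4 were higher under Nutlin-3a in 3 of 3 pairs of libraries with the same number. The log2 differences within pairs were 0.037 to 0.23 for SDC1 and 0.0078 to 0.15 for SDC4. The 95% intervals given for the Nutlin-3a comparison leave out the pairing, so they include the spread between pairs.

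SDC3 was the most even member, with 100, 108 and 112 CPM under DMSO and 102, 98.3 and 110 CPM under Nutlin-3a (log2 fold change −0.046, 95% interval −0.27 to 0.18). GPC1 stood at 91.7, 121 and 104 CPM under DMSO and at 98.4, 141 and 137 CPM under Nutlin-3a. It was higher in 3 of 3 pairs, with log2 differences within pairs of 0.10 to 0.40. Its log2 fold change was 0.25 (95% interval −0.13 to 0.62, edgeR adjusted p = 0.9997). A fit that blocks on replicate number called 1.22% of all genes DE, and in it the edgeR adjusted p of GPC1 was 0.222, so that it was still not DE.

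The low members did not change beyond the error either. GPC4 stood at 9.57, 7.73 and 7.70 CPM under DMSO and at 10.0, 7.69 and 7.76 CPM under Nutlin-3a (log2 fold change 0.028, 95% interval −0.40 to 0.46). GPC6 stood at 7.36, 10.4 and 11.1 CPM under DMSO and at 9.61, 13.3 and 9.94 CPM under Nutlin-3a (0.18, −0.31 to 0.68). SDC2 had 1.99, 2.76 and 2.22 CPM under DMSO and 1.72, 3.04 and 2.70 CPM under Nutlin-3a (0.099, −0.55 to 0.75). GPC3 had 1, 1 and 6 counts under DMSO and 2, 4 and 3 under Nutlin-3a and was not tested. An antisense row across GPC3 in that table, RP3-417G15.1, held 11 to 25 counts per library, more than GPC3 itself, and since the strand setting of the counting is not given the reads of this pair cannot be told apart. The other rows that overlap a member held at most 4 counts in any library.

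The replicate number separated SDC1 from SDC4 in this experiment. Replicate 2 had the lowest SDC1 and the highest SDC4 of its group both under DMSO and under Nutlin-3a. The ratio of SDC4 to SDC1 CPM was 0.654, 1.58 and 0.786 under DMSO and 0.615, 1.71 and 0.694 under Nutlin-3a, highest in replicate 2 of each group. The same libraries had the lowest summed epithelial markers, 4054 CPM against 5456 and 6673 under DMSO and 4326 CPM against 6254 and 6987 under Nutlin-3a. They also had the highest summed mesenchymal markers, 4009 CPM against 1790 and 2676 under DMSO and 3751 CPM against 2092 and 2322 under Nutlin-3a. In the untreated table the ratio of SDC4 to SDC1 was 0.450 and 0.613 in MCF10A and 1.77 and 3.31 in G12V. There the library of each group with the higher ratio had the higher epithelial sum (9283 against 7487 CPM in MCF10A, 1852 against 1505 CPM in G12V). Its mesenchymal sum was the lower one in MCF10A (1764 against 2159 CPM) and the higher one in G12V (2297 against 1665 CPM). A sum in CPM follows its most abundant genes, so it does not stand for each marker of its list. Fewer cells of a kind and less RNA per cell cannot be told apart in these bulk samples.

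**Figure D4:**
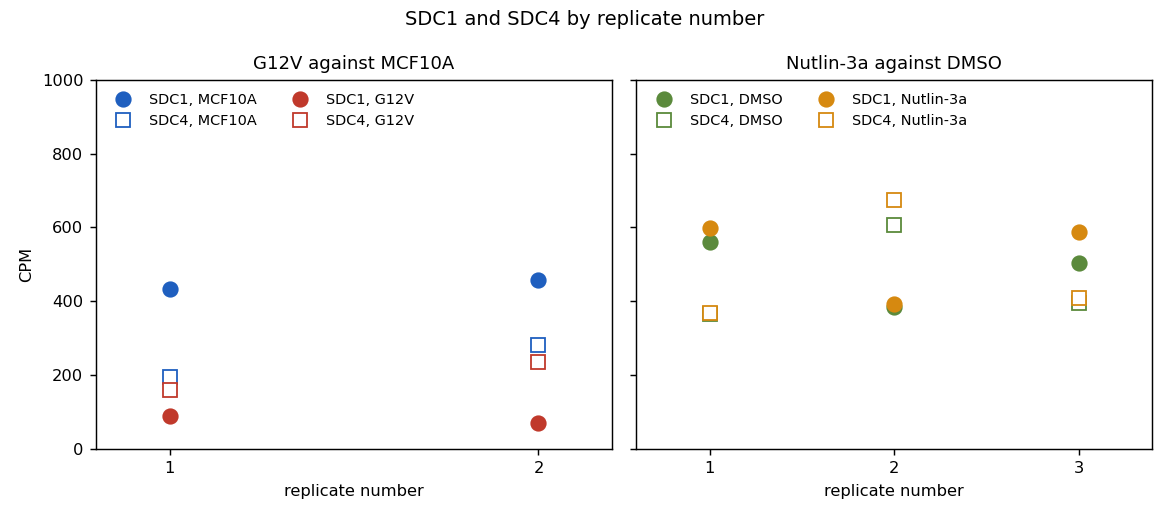
CPM of SDC1 (filled circles) and SDC4 (open squares) by replicate number, untreated cells at left and the Nutlin-3a experiment at right. In the Nutlin-3a experiment replicate 2 has the lowest SDC1 (383 and 393 CPM) and the highest SDC4 (606 and 674 CPM) of both treatments.

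The genes whose levels ran most like those of the DE members were sought over all 10 libraries, with log2 CPM centred within each table, among 12073 genes tested in both comparisons. Most like GPC6, the DE member that rose, were MME, a cell surface peptidase of myoepithelial and other cells, with a Pearson r of 0.990, SERTAD2 with 0.982 and PROS1, the anticoagulant protein S, with 0.979. Most like GPC4, the DE member with the lowest fitted log2 fold change (an order that turns to SDC1, at −2.65 against −2.40, without G12V replicate 1, and at −2.44 against −2.31 without MCF10A replicate 2), were CDC42BPG, a kinase that acts below CDC42, SORBS2, an adaptor of the actin cytoskeleton, both with 0.994, and CDS1, an enzyme of phospholipid synthesis, with 0.994. These values are a description. The libraries of a table share its scaling and its groups.

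The other genes of the heparan sulfate pathway came in 7 lists of 76 genes, chosen with earlier results of these data known. Their shares of DE genes are therefore a description and no test of the pathway. Of the 61 tested in G12V against MCF10A, 10 were DE and higher and 9 DE and lower (31.1%, against 11.0% of all genes), with a median log2 fold change of 0.027. Without MCF10A replicate 1 the count was 0, as for the whole table.

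**Figure D5:**
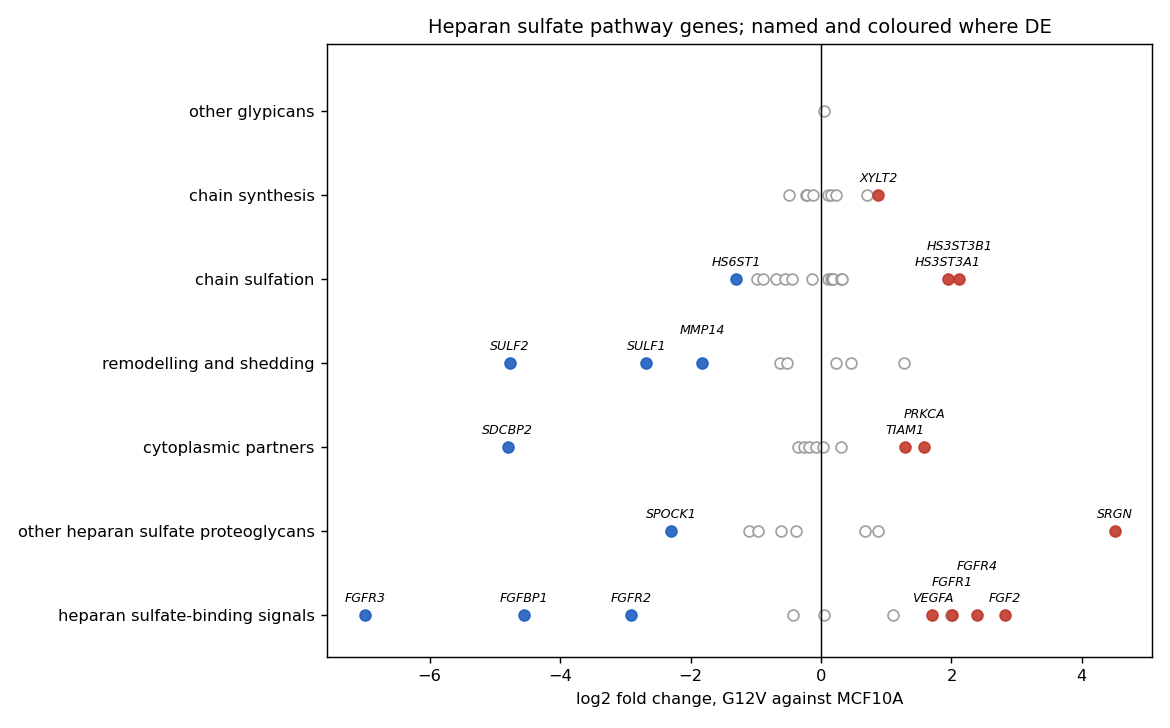
Log2 fold change in G12V against MCF10A of each tested gene of the 7 pathway lists, red where DE and higher, blue where DE and lower and open where not DE. Chain synthesis clusters near 0, while the DE genes of remodelling and shedding all lie to the left and those of the heparan sulfate-binding signals lie on both sides.

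Of 9 tested genes of chain synthesis 1 was DE (11.1%, near the 11.0% of all genes), XYLT2, a xylosyltransferase that starts the chain on the core protein. It rose from 31.7 ± 0.435 CPM (SD, n = 2) in MCF10A to 58.3 ± 5.91 CPM (SD, n = 2) in G12V (log2 fold change 0.88, edgeR adjusted p = 0.0374). This call was also lost with no filter (adjusted p = 0.0518), without MCF10A replicate 2 (0.145) and without G12V replicate 2 (0.116). Of 15 tested genes of chain sulfation 2 rose and 1 fell (20% DE, against 11.0% of all genes). HS3ST3A1 and HS3ST3B1, which add the rare 3-O-sulfate, rose by 1.94 and 2.12 on the log2 scale (edgeR adjusted p = 0.00965 and 0.0414), from 11.95 and 8.06 to 39.2 and 37.7 CPM and from 5.68 and 9.03 to 19.2 and 44.9 CPM. These paralogs have nearly identical sulfotransferase domains, so the split of reads between them is uncertain. HS6ST1, a 6-O-sulfotransferase, stood at 81.5 and 115 CPM in MCF10A and at 44.1 and 35.7 CPM in G12V (log2 fold change −1.30, edgeR adjusted p = 0.0232, and 0.0602 without MCF10A replicate 2).

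All 3 DE genes among the 8 tested of remodelling and shedding fell (37.5% DE, against 11.0% of all genes). SULF2, an extracellular enzyme that removes 6-O-sulfate from finished chains, stood at 80.6 and 169 CPM in MCF10A and at 3.25 and 5.89 CPM in G12V (log2 fold change −4.77, edgeR adjusted p = 0.00431). Its relative SULF1 stood at 1.68 and 2.86 CPM in MCF10A and at 0.171 and 0.535 CPM in G12V (−2.68, adjusted p = 0.0470). The SULF1 call was also lost with no filter (adjusted p = 0.0548), without MCF10A replicate 2 (0.133) and without G12V replicate 1 (0.0582), and its log2 fold change ranged from −3.69 to −2.08. MMP14, a membrane protease that can cut SDC1 from the cell, stood at 216 and 342 CPM in MCF10A and at 63.6 and 94.3 CPM in G12V (−1.82, adjusted p = 0.0190). The median log2 fold change of this list was −0.57.

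Of the 9 cytoplasmic partners of syndecans, all tested, 2 rose and 1 fell (33.3% DE, against 11.0% of all genes). PRKCA, the kinase that binds the tail of SDC4, stood at 31.3 and 35.2 CPM in MCF10A and at 87.3 and 111 CPM in G12V (log2 fold change 1.58, edgeR adjusted p = 0.00821). TIAM1, a RAC1 activator that binds the tail of SDC1, stood at 17.0 and 15.5 CPM in MCF10A and at 43.0 and 36.5 CPM in G12V (1.29, adjusted p = 0.0172, and 0.0609 without MCF10A replicate 2). SDCBP2, syntenin-2, had 13 and 21 counts in MCF10A and 0 and 1 in G12V (edgeR adjusted p = 0.0237), with a ratio of MCF10A to G12V of 34.8 (exact 95% interval 5.84 to 1416, counting error only). In the untreated table SDCBP2 lay inside a read-through row on the same strand, FKBP1A-SDCBP2, that held 0 counts. Reads that fall in both rows may have gone uncounted, which was not tested, so these counts and their ratio may rest on a small part of the SDCBP2 reads. The Nutlin-3a table has no such row on that strand, and SDCBP2 stood there at 62.0 ± 19.2 CPM (SD, n = 3) under DMSO.

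Other heparan sulfate proteoglycans had 1 DE gene in each direction among 8 tested (25% DE, against 11.0% of all genes). SRGN, serglycin, a proteoglycan of secretory granules, stood at 7.59 and 10.4 CPM in MCF10A and at 145 and 263 CPM in G12V (log2 fold change 4.51, edgeR adjusted p = 0.00242). SRGN is typical of leukocytes, whose own 5 markers summed to 41.1 CPM at most in G12V, with 3 of the 5 at 0. Most of that sum was CD14, at a mean of 27.5 CPM in MCF10A and 30.7 CPM in G12V. The source of the SRGN RNA was not tested. SPOCK1, testican-1, stood at 26.4 and 15.5 CPM in MCF10A and at 3.12 and 5.40 CPM in G12V (−2.30, adjusted p = 0.0215).

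The signals that bind the chains had the highest share of DE genes of the 7 lists, with 4 higher and 3 lower of 11 tested (63.6%, against 11.0% of all genes). FGF2 rose from 18.0 ± 5.75 to 127 ± 10.6 CPM (SD, n = 2 each; log2 fold change 2.81, edgeR adjusted p = 0.00368), and FGFBP1, a secreted carrier of FGF2, fell from 168 ± 1.45 to 7.18 ± 4.10 CPM (−4.55, adjusted p = 0.00334). The 4 FGF receptors split. FGFR1 went from 9.59 and 7.58 CPM to 36.6 and 32.6 CPM (2.01, adjusted p = 0.00670) and FGFR4 from 3.36 and 2.29 CPM to 12.1 and 17.8 CPM (2.40, adjusted p = 0.0128). FGFR2 went from 11.5 and 10.8 CPM to 1.71 and 1.25 CPM (−2.91, adjusted p = 0.00609) and FGFR3 from 41.8 and 104 CPM to 0.812 and 0.312 CPM (−6.99, adjusted p = 0.00359). VEGFA, the vascular growth factor, went from 59.2 and 35.7 CPM to 141 and 169 CPM (1.71, adjusted p = 0.0167).

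The neighbours of some DE pathway genes were shifted in the same direction as the gene. The 74 tested genes within 5 Mb of FGFR3, on the short arm of chromosome 4, had a median log2 fold change of −0.81, with 22 DE and lower and 4 DE and higher, and the 63 within 5 Mb of PRKCA, on the long arm of chromosome 17, had a median of 0.50. Around XYLT2 the median was 0.29, and around the other 16 DE pathway genes it lay between −0.21 and 0.22. The part of these regional shifts in the changes of FGFR3, PRKCA and XYLT2 was not tested. The 1 tested gene of the other glypicans, GPC2 and GPC5, was not DE.

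Under Nutlin-3a none of the 58 tested pathway genes was DE in the main test (median log2 fold change 0.018, with 0.0066 over all genes tested), and 1 had an unadjusted edgeR p under 0.05. That gene was AREG, amphiregulin, an EGF family ligand that binds heparan sulfate, named after its values were seen. It stood at 70.1, 70.4 and 59.8 CPM under DMSO and at 93.7, 103 and 110 CPM under Nutlin-3a, so that the groups did not overlap (log2 fold change 0.61, edgeR adjusted p = 0.170). In the fit with the block its edgeR adjusted p was 0.00522, and it was also DE with DESeq2 (0.00150) and with edgeR's exact test (0.00584).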

How the data were processed

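RNA-seq libraries of MCF10A and G12V cells (2 each) and of DMSO- and Nutlin-3a-treated MCF10A cells (3 each) were analysed from 2 tables of raw counts per gene that the authors deposited. According to the submitters' processing notes, the authors made them with TopHat on hg19 and HTSeq, and tested them with edgeR. Each table carries its own annotation, whose version is not given in the sources used here, nor is the strand setting. Counts of each table were tested in edgeR 4.0.16 (R 4.3.3) after filterByExpr and TMM scaling, with glmQLFit and glmQLFTest and no covariate. The standard error is the log2 fold change over the root of F, with a prior count of 0.125, and intervals are at 95%. The fit was tested on simulated data. DESeq2 1.42.0, other scalings, filters and thresholds, a replicate block and leaving out each library were the alternatives. Per-length levels used canonical transcripts of GENCODE v44 lifted to GRCh37, and the union of exons as an alternative chosen after seeing the data. Counting intervals cover counting error only, and the floor of 3 counts is fixed and carries no error.

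Genes named are the 8 members, every DE gene of the pathway lists, and the 3 genes most like each of the DE members with the highest and the lowest fitted log2 fold change. The members and lists were chosen with earlier results of these data known. Same-numbered DMSO and Nutlin-3a libraries deviated together from their group means (r of 0.603 to 0.639 in 3 pairs, against −0.474 to −0.191 between other numbers), so the numbers were taken to pair them. This check came from the data, and the labels give only the number.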

Additional observations from a re-analysis of the deposited data

How the results depend on the processing

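Every gene call in G12V against MCF10A was lost without MCF10A replicate 1, and the cause was not tested. Over the 4 fits that each left out 1 library, the DE members ranged from 0 to 3 and the DE pathway genes from 0 to 20. Such a fit leaves 1 library in an arm and assumes that it varies like the other group. With the replicate number as a block, 30 pathway genes were DE (15 higher, 15 lower) in place of 19, 3 members stayed DE in number, and 4158 genes of the table were DE in place of 1575. Same-numbered MCF10A and G12V libraries also deviated together from their group means (r = 0.494, against −0.494 between other numbers). With only 2 libraries per group these values mirror each other. Whether the numbers pair these libraries was not tested, and the main test leaves the number out. Of the values of single members against the alternatives, 97 kept direction and call in G12V, 6 lost the call and 2 changed sign. Under Nutlin-3a 109 kept both and 10 changed sign, and no member became DE under any alternative. In G12V the sign turned for SDC2 without MCF10A replicate 1 (0.038) and for SDC4 without MCF10A replicate 2 (0.0094), with ranges over the fits without 1 library of −0.42 to 0.038 and −0.58 to 0.0094. Under Nutlin-3a the sign turned for GPC4 with library totals alone (−0.0076). Without 1 library the ranges there were −0.011 to 0.30 for SDC1, −0.075 to 0.31 for SDC2, −0.23 to 0.34 for SDC4 and −0.11 to 0.14 for GPC4. Under Nutlin-3a 1 pathway gene (AREG) was DE with DESeq2, with edgeR's exact test, with no filter, with the replicate block and with an unadjusted p and a fold of 1.3, against 0 in the main test. The block changed no other call. Of the DE pathway genes' values, 256 kept direction and call and 27 lost the call, of which 19 lost it without MCF10A replicate 1. At this depth GPC3 and SDC2 allow only wide intervals.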
